A study of Mus musculus with 5 samples.

Results

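The genes described here encode the glycolytic pathway and the transcriptional response to low oxygen in dendritic cells that lack the transcription factor Etv3. The list of 36 gene symbols was chosen by name, and all 36 were found among the 27678 rows of the deposited table. A glycolysis set of 23 genes holds the glucose transporters, the enzymes of glycolysis with the phosphofructokinase regulators, the lactate dehydrogenases and the lactate carriers. A hypoxia set of 13 genes holds the pyruvate dehydrogenase kinases, Hif1a, its prolyl hydroxylases, further targets of the hypoxia-inducible factor HIF, and Mif. The rule uses gene names and no measured values, but the list was drawn up with earlier results of these data known.

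Glycolysis splits glucose into pyruvate in the cytosol and yields ATP without oxygen, and pyruvate that does not enter mitochondria leaves the cell as lactate. When oxygen is plentiful, prolyl hydroxylases mark the alpha subunits of HIF for destruction, and when it is scarce HIF accumulates and activates genes for glucose uptake, glycolysis, lactate production and the curbing of mitochondrial pyruvate use. Activated dendritic cells are known to raise their glycolytic rate.

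The RNA came from sorted dendritic cells grown from marrow of Etv3-/- mice (3 libraries) and of Etv3+/+ mice (2 libraries). The growth medium held GM-CSF (20 ng/ml) together with IL-4 (5 ng/ml), and cultures of both genotypes lasted 6 days. Live single cells with surface CD11c, intermediate CD11b, high MHC class II and no CD115 were then sorted, to a purity above 95% per the labels. The labels state neither the age of the mice nor which part of Etv3 was disrupted. They also do not say that replicates were separate animals or cultures, and the p-values then cover only spread among libraries that may be technical. Values with ± are means and SDs of normalized counts, with n = 3 for Etv3-/- and n = 2 for Etv3+/+.

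Recovered depth was 42983550 to 59694413 reads in Etv3-/- libraries and 56445754 to 68253936 in Etv3+/+ libraries. Etv3 itself had 18691, 20416 and 22856 normalized counts in Etv3-/- libraries, against 23050 and 25447 in Etv3+/+ libraries, a log2 fold change of -0.23 (limma adjusted p = 0.567), so its gene total does not check the genotype labels. All 14 dendritic cell markers passed the filter on low values. Their sum was 2431903 to 3233587 normalized counts in Etv3-/- libraries, against 1247848 to 1641233 in Etv3+/+ libraries. The largest terms of that sum were Cd74, H2-Ab1, H2-Aa, Ccr7 and H2-Eb1. Ciita alone was called higher (limma adjusted p = 0.0380), where 0.876% of all genes were. Log2 fold changes were below 0 for Ccr7 (-0.07), Irf4 (-0.47), Cd80 (-0.58) and Cd86 (-0.19). They were above 0 for the other markers, with Flt3 at 0.02. Of 14 tested macrophage and monocyte markers 3, C1qa, C1qb and C1qc, were called higher (limma, adjusted p under 0.05), where 0.876% of all genes were. The log2 fold change was below 0 for Mrc1 (-0.02), Ccr2 (-0.21) and Ly6c2 (-0.64). It was above 0 for the other tested markers of this list. The summed level of the 16 listed was 21909 to 27233 normalized counts in Etv3-/- libraries, against 10484 to 12503 in Etv3+/+ libraries, with Marco and Vsig4 at 0 throughout. Summed neutrophil markers were at 15628 to 77048 in Etv3-/- libraries and 53682 to 56592 in Etv3+/+ libraries. B cell markers summed to 4467 to 6776 normalized counts in Etv3-/- libraries and 2105 to 2529 in Etv3+/+ libraries. T and NK cell markers summed to 2991 to 5587 normalized counts in Etv3-/- libraries and 7052 to 7557 in Etv3+/+ libraries, with Ncr1 at 0 throughout. Mast cell and basophil markers summed to 12110 to 18246 in Etv3-/- libraries and 11359 to 19792 in Etv3+/+ libraries. Markers of red cell precursors summed to 15.8 to 49.5 in Etv3-/- libraries and 16.3 to 81.1 in Etv3+/+ libraries, and those of stroma to 2.5 to 44.7 in Etv3-/- libraries and 51.3 to 62.5 in Etv3+/+ libraries. Mitochondrial transcripts took 1.10% to 3.17% of normalized counts in Etv3-/- libraries and 1.98% to 6.64% in Etv3+/+ libraries. The part of these differences in the results below was not tested. In bulk RNA, a change in the number of cells of a type and a change in RNA per cell cannot be told apart.

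HIF binds DNA at a short core, ACGTG or GCGTG. The windows of 250 bases before the gene start were read from the RefSeq promoter table (GRCm38.p6, the first listed start of each gene), which held 33 of the 36 members. On either strand, 26 of these 33 windows held a HIF core, or 78.8%, against 38.6% of the 27025 windows of all genes in the table. The shares were 77.3% in the glycolysis set and 81.8% in the hypoxia set. Known HIF targets are among the members by choice, so a higher share was built into the list. The windows of all genes were not matched to those of the members in base content or expression. An ETS core, CCGGAA on either strand, the kind of element bound by the family to which Etv3 belongs, was in 3 of the 33 windows, or 9.09%, against 12.2% of all windows. These matches are letters in a window and do not show binding. The E-box CACGTG contains ACGTG on both strands and is counted for each strand, and it occurred in 15.2% of the members' windows and 6.05% of all. The windows shown are those of Aldoc, which had the lowest adjusted p of all members, Ldha and P4ha1 of the 2 sets, Ankrd37, a gene that responds steeply to low oxygen, and Pfkfb3, the member that differed most in the other direction. Capitals mark the HIF cores.
Aldoc (chr11:78322823-78323072, plus strand): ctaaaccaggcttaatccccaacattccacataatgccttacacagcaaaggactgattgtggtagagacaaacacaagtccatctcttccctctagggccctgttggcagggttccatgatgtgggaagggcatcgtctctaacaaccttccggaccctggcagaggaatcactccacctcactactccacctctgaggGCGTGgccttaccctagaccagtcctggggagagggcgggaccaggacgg
Ldha (chr7:46845554-46845803, plus strand): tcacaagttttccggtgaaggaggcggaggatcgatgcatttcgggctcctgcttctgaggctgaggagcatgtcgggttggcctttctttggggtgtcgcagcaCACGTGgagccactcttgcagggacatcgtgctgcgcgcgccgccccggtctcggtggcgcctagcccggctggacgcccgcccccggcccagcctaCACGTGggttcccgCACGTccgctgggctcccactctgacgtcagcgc
P4ha1 (chr10:59323046-59323295, plus strand): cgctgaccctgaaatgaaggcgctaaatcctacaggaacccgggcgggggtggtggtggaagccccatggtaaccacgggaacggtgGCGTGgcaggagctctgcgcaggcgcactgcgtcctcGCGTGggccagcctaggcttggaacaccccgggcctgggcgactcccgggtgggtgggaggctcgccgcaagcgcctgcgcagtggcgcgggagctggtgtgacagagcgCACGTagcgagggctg
Ankrd37 (chr8:45999851-46000100, minus strand): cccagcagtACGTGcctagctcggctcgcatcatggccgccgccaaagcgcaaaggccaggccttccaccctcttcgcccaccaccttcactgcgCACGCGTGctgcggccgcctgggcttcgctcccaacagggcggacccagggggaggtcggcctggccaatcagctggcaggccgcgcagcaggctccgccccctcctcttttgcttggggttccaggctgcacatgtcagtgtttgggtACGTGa
Pfkfb3 (chr2:11553930-11554179, minus strand): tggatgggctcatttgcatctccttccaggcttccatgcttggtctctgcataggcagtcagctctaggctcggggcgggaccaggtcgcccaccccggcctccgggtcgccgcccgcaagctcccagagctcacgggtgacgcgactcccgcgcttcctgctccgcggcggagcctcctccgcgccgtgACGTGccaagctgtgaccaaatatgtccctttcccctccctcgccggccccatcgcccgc
Aldoc held 1 core, 50 bases before the start, Ldha 5, P4ha1 3, Ankrd37 4 and Pfkfb3 1. Aldoc and Ldha also held an ETS core each.

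In the fit of all 5 libraries, transcripts of most glycolytic enzymes stood near 2 times the Etv3+/+ level in Etv3-/- cells. These ran from glucose entry by Slc2a1 to lactate production by Ldha. Fitted folds were smaller, among others, for Slc2a3 (1.29), Hk1 (1.30) and Pfkp (1.27). No single member passed the limma test over all genes. In the glycolysis set the log2 fold change, Etv3-/- minus Etv3+/+, had a median of 0.90 and was above 0 for 21 of 23 genes, beside a median of -0.06 and a share above 0 of 46.3% over the 13813 genes tested. In the hypoxia set the median was 0.40, with 10 of 13 genes above 0. Without Etv3-/- replicate 1 the glycolysis median was 0.67 and the hypoxia median 0.34. With a correction for GC content and length as well, chosen after seeing the data, they were 0.37 and 0.07. At an adjusted p under 0.05 in limma, 0 of 36 members were called, where 0.876% of all genes were called higher and 0.319% lower. The lowest adjusted p among members was 0.0550, for Aldoc. At an unadjusted p under 0.05, 14 glycolysis genes were higher and 1, Pfkfb3, lower, and 4 hypoxia genes were higher and 0 lower, where 8.02% of all genes were higher and 9.93% lower. All Etv3-/- values lay above both Etv3+/+ values for 15 glycolysis and 4 hypoxia genes, against 16.7% of all tested genes, and below both for Pfkfb3 and Pdk3, against 19.3%. edgeR on recovered reads called 0 members, where 0.825% of all genes were called higher and 0.319% lower. At an unadjusted p under 0.05 it had 19 members higher and 1 lower, where 8.8% and 8.2% of all genes were. An exact permutation test of a single gene over the 10 splits of these libraries cannot give a p below 0.1. DESeq2 called 16 members higher and 0 lower, 12 of them in the glycolysis set, where it called 4.66% of all genes higher and 3.94% lower.

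**Figure D1:**
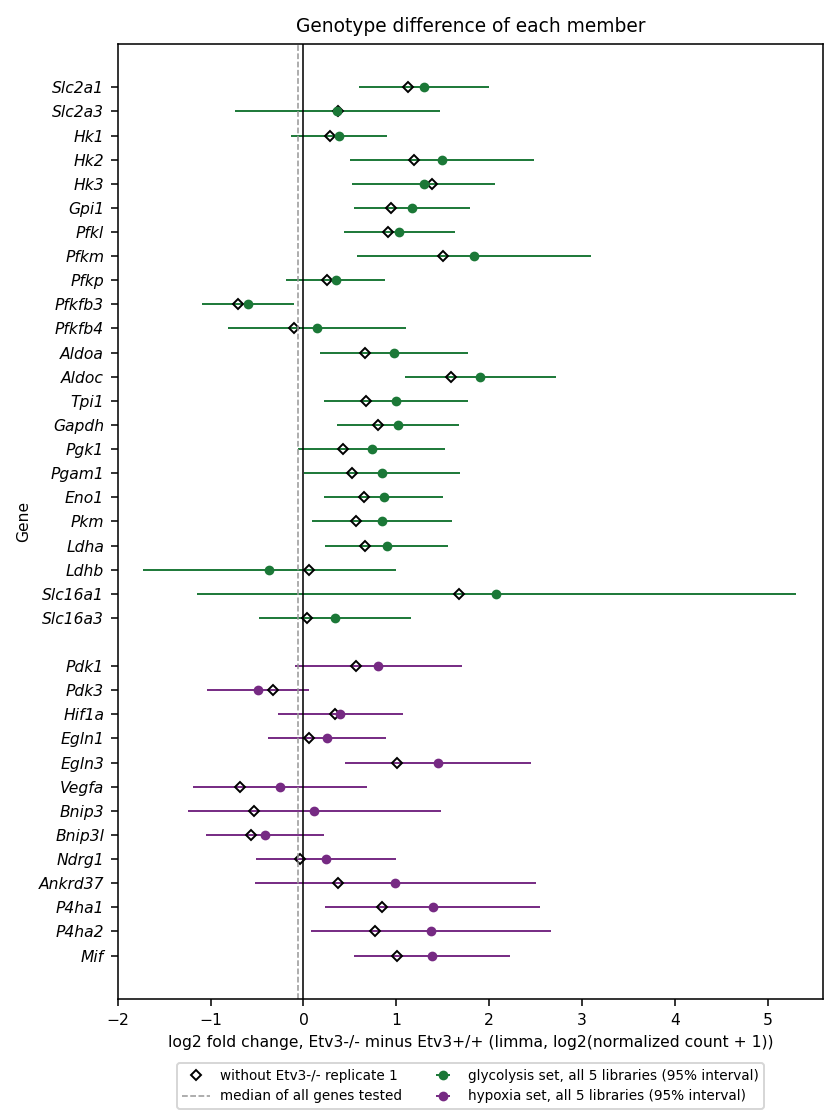
Log2 fold change of each member, Etv3-/- minus Etv3+/+, with its 95% interval from limma (circles, glycolysis set in green and hypoxia set in purple), and the value without Etv3-/- replicate 1 (open diamonds); the dashed line is the median of all genes tested, -0.06. The glycolytic enzymes from Gpi1 to Ldha lie between 0.74 and 1.90 apart from Pfkp and the regulators Pfkfb3 and Pfkfb4, while the hypoxia set spreads to both sides of 0.

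The spread among Etv3-/- libraries was large for these genes, and replicate 1 was at the top. Replicate 1 was the highest of the 5 libraries for 18 of 23 glycolysis genes and 10 of 13 hypoxia genes, where it was highest for 19.0% of all genes. On the log2 scale it lay above the mean of Etv3-/- replicates 2 and 3 by a median of 0.69 in the glycolysis set and 1.14 in the hypoxia set, against 0.03 over all genes. For 11 of 13 hypoxia genes, or 84.6%, that gap was larger than the difference between replicates 2 and 3 and the Etv3+/+ libraries. The same held for 10 of 23 glycolysis genes, or 43.5%, which is near the 42.7% of all genes. Without replicate 1 the glycolysis median was 0.67, with 21 genes still above 0, and the hypoxia median was 0.34, with 8 above 0. In that fit 13 members were higher and 2 lower at an unadjusted p under 0.05, where 6.04% and 7.88% of all genes were, and limma called 0 members and 0 (0.0%) of all genes. Of the 5 libraries, replicate 1 had the lowest summed neutrophil markers, 15628 normalized counts, the lowest summed T and NK cell markers, 2991, and the highest summed B cell markers, 6776. Single markers of these lists went the other way. Elane and Mpo of the neutrophil list, at 669 and 3337, and Prf1 of the T and NK list, at 74.2, were highest in replicate 1. Of the B cell list, Cd79b, Ms4a1, Cd22 and Ebf1 were highest in other libraries. The part of these cell types in the values above was not tested.

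**Figure D2:**
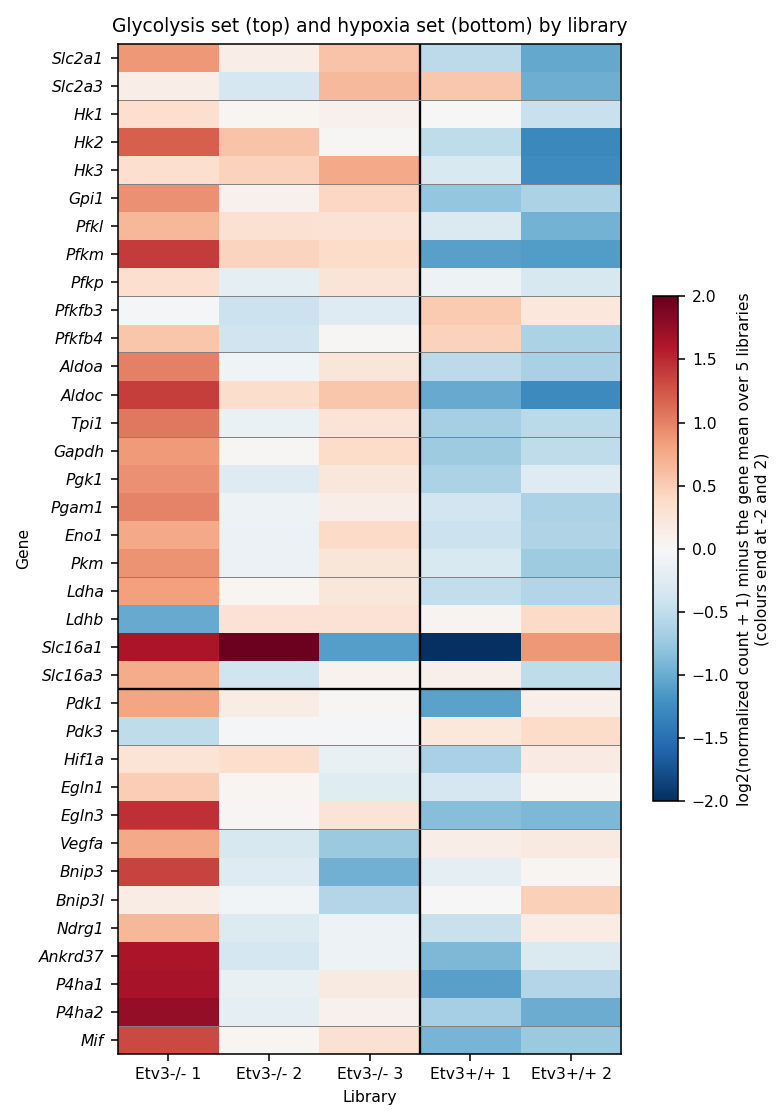
Deviation of each member from its own mean over the 5 libraries, as log2(normalized count + 1), with the glycolysis set above the thick line and the hypoxia set below it; red is above the mean and blue below, and colours end at -2 and 2. Etv3-/- replicate 1 is the reddest column in both sets, with 28 of 36 members at their highest there.

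Glucose enters these cells through facilitative transporters. Slc2a1, which encodes GLUT1 (chromosome 4, bases 119108711 to 119137983 of GRCm38), was measured at 3602, 2156 and 2931 normalized counts in Etv3-/- libraries, against 1372 and 967 in Etv3+/+ libraries. All 3 Etv3-/- values lay above both others, with a log2 fold change of 1.30 (95% interval 0.60 to 2.00, limma adjusted p = 0.0916). Slc2a3, for the high-affinity transporter GLUT3, averaged 1721 ± 583 in Etv3-/- libraries and 1465 ± 994 in Etv3+/+ libraries, and its groups overlapped.

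Hexokinases trap glucose as glucose phosphate, and the 3 isoforms differed in how far apart the genotypes stood. Hk1, the widely expressed isoform, had 7671, 6204 and 6410 normalized counts in Etv3-/- libraries and 6032 and 4444 in Etv3+/+ libraries, a log2 fold change of 0.38 (limma adjusted p = 0.417). Hk3, an isoform found in myeloid cells, had 2086, 2281 and 2794 in Etv3-/- libraries, against 1342 and 692 in Etv3+/+ libraries (log2 fold change 1.30, limma adjusted p = 0.116). Hk2, the inducible isoform and a HIF target, averaged 1433 ± 584 in Etv3-/- libraries and 499 ± 187 in Etv3+/+ libraries, a log2 fold change of 1.49. For each hexokinase the groups did not overlap, Hk1 by the smallest margin.

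Per kilobase of annotated exon, which allows levels of different genes to be set side by side, the make-up of the hexokinases differed with genotype. Hk1 made up 49.7%, 46.3% and 45.2% of the family in Etv3-/- libraries, against 60.1% and 67.6% in Etv3+/+ libraries. Hk3 took 31.3%, 39.5% and 45.7% in Etv3-/- libraries, against 31.0% and 24.4% in Etv3+/+ libraries. Hk2 took 19.1%, 14.2% and 9.13% in Etv3-/- libraries, against 8.98% and 7.98% in Etv3+/+ libraries. The share of Hk1 was thus lower in every Etv3-/- library, and the Hk2 and Hk3 shares each cleared the Etv3+/+ range by less than 1 percentage point in the closest library. These proportions are given as a description and were not tested.

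**Figure D3:**
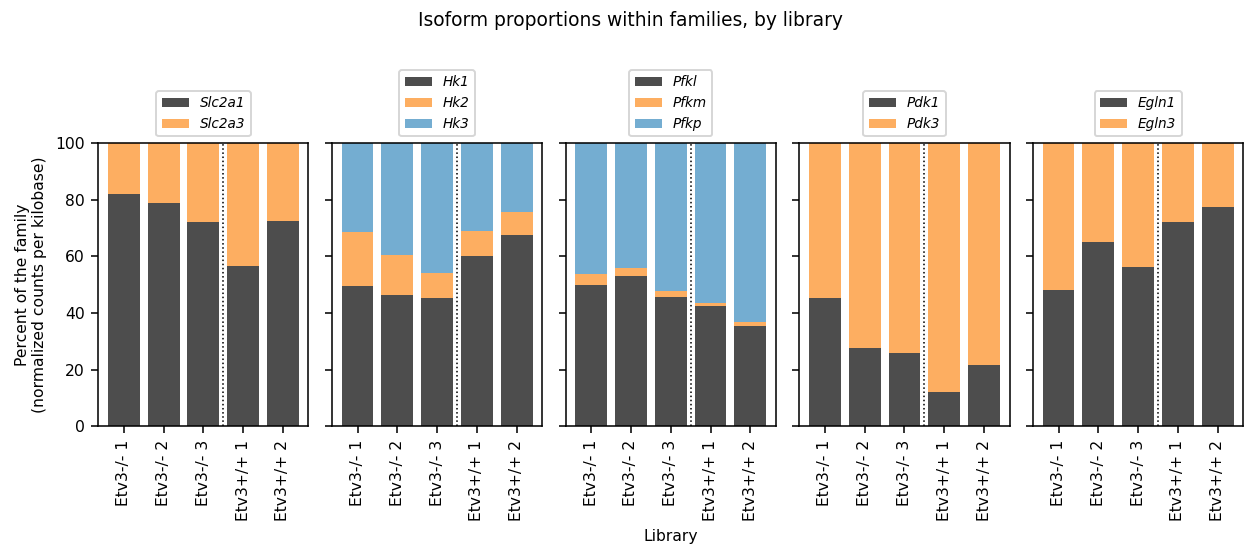
Share of each isoform within its family in each library, in percent of normalized counts per kilobase of annotated exon, with Etv3-/- libraries left of the dotted line. The Hk1 share is 45.2% to 49.7% in Etv3-/- libraries and 60.1% to 67.6% in Etv3+/+ libraries, and the Egln3 share is 35.0% to 51.8% in Etv3-/- libraries and 22.4% to 27.8% in Etv3+/+ libraries.

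Gpi1, the isomerase that turns glucose phosphate into fructose phosphate, had 44589, 25120 and 31548 normalized counts in Etv3-/- libraries, against 13891 and 15377 in Etv3+/+ libraries. Its lowest Etv3-/- value was well above the higher Etv3+/+ value (log2 fold change 1.17, 95% interval 0.54 to 1.79, limma adjusted p = 0.0907). Phosphofructokinase, which commits sugar to glycolysis, is encoded by a liver-type, a muscle-type and a platelet-type gene. Pfkl averaged 10490 ± 1593 in Etv3-/- libraries and 5215 ± 1656 in Etv3+/+ libraries (log2 fold change 1.03), and the low-abundance Pfkm 334 ± 144 in Etv3-/- libraries and 87.5 ± 1.49 in Etv3+/+ libraries (1.84). Pfkp averaged 20280 ± 3706 in Etv3-/- libraries and 15789 ± 1779 in Etv3+/+ libraries, with groups that overlapped. By exon length Pfkl made up 45.6% to 53.0% of the family in Etv3-/- libraries and 35.3% to 42.4% in Etv3+/+ libraries, and Pfkp 44.1% to 52.1% in Etv3-/- libraries and 56.4% to 63.2% in Etv3+/+ libraries.

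Of the bifunctional regulators of phosphofructokinase, Pfkfb3 stood on the other side. Pfkfb3, which makes the allosteric activator of phosphofructokinase and is itself induced by hypoxia and by inflammatory signals, had 9776, 7444 and 8363 normalized counts in Etv3-/- libraries, against 14308 and 11528 in Etv3+/+ libraries. All 3 Etv3-/- values were below both Etv3+/+ values, a log2 fold change of -0.60 (95% interval -1.10 to -0.10, limma adjusted p = 0.210), and it was -0.70 without Etv3-/- replicate 1. Pfkfb4 averaged 1382 ± 457 in Etv3-/- libraries and 1289 ± 656 in Etv3+/+ libraries, with overlapping groups.

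Aldolase splits the fructose phosphate into triose phosphates. Aldoa, which had the highest level per kilobase of all members in both genotypes, had 191287, 89524 and 112664 normalized counts in Etv3-/- libraries, against 65863 and 60712 in Etv3+/+ libraries. The Etv3-/- libraries differed among themselves more than they did, at the low end, from Etv3+/+ (log2 fold change 0.98, 95% interval 0.18 to 1.77, limma adjusted p = 0.205). Aldoc, an isoform best known from brain and a HIF target, had 3847, 1881 and 2154 normalized counts in Etv3-/- libraries, against 731 and 609 in Etv3+/+ libraries. Its log2 fold change of 1.90 (95% interval 1.09 to 2.72, limma adjusted p = 0.0550) was the largest of the glycolysis set apart from the sparse Slc16a1, and it was 1.59 without Etv3-/- replicate 1. Aldoc was the single member past the threshold with a pseudocount of 5, a filter at 50 normalized counts or TMM scaling, where 1.04%, 1.24% and 0.97% of all genes were called higher. It made up 1.68% to 1.84% of aldolase per kilobase in Etv3-/- libraries, against 0.887% and 0.980% in Etv3+/+ libraries. Tpi1, the triose phosphate isomerase, averaged 25459 ± 10944 in Etv3-/- libraries and 12011 ± 703 in Etv3+/+ libraries, a log2 fold change of 1.00.

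In the payoff phase, where ATP is made, log2 fold changes of all 5 enzymes lay in a narrow band, 0.74 to 1.02. Gapdh, the glyceraldehyde phosphate dehydrogenase that is often used as a reference transcript, had 97360, 54863 and 69593 normalized counts in Etv3-/- libraries, against 33046 and 38003 in Etv3+/+ libraries, without overlap (log2 fold change 1.02, 95% interval 0.36 to 1.68, limma adjusted p = 0.133). Pgk1, a phosphoglycerate kinase, averaged 8634 ± 3596 in Etv3-/- libraries and 4939 ± 892 in Etv3+/+ libraries and was the enzyme of this phase whose groups overlapped. Pgam1, the mutase, averaged 1802 ± 769 in Etv3-/- libraries and 950 ± 113 in Etv3+/+ libraries, Eno1, the enolase, 27802 ± 8210 in Etv3-/- libraries and 14860 ± 1324 in Etv3+/+ libraries, and Pkm, the pyruvate kinase, 63344 ± 23401 in Etv3-/- libraries and 34020 ± 6561 in Etv3+/+ libraries. Without Etv3-/- replicate 1 the band ran from 0.42 for Pgk1 to 0.80 for Gapdh.

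**Figure D4:**
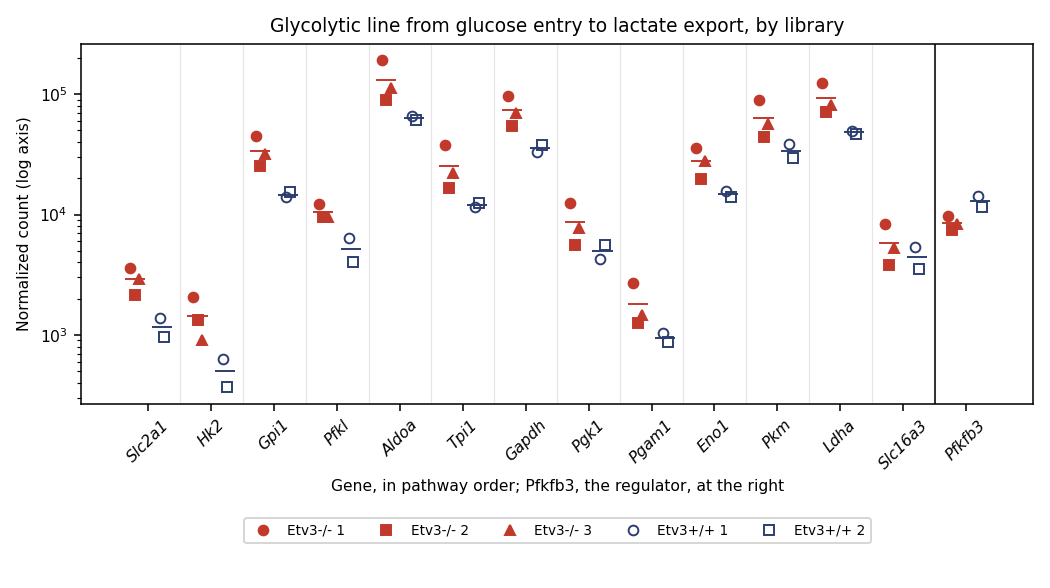
Normalized counts on a log axis for 13 genes in pathway order and the regulator Pfkfb3, by library, with Etv3-/- (filled) left of Etv3+/+ (open) and horizontal bars at the group means. Each enzyme plotted from Gpi1 to Ldha is higher in all 3 Etv3-/- libraries except Pgk1, and Pfkfb3 is lower in all 3, at 7444 to 9776 in Etv3-/- libraries against 11528 and 14308 in Etv3+/+ libraries. A single isoform is plotted per step. Hk1 and Pfkp, the larger part of their families in Etv3+/+ libraries, are left out, with log2 fold changes of 0.38 and 0.35.

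Ldha, which reduces pyruvate to lactate, had 123229, 71601 and 81647 normalized counts in Etv3-/- libraries, against 49848 and 46542 in Etv3+/+ libraries. Its groups did not overlap, with a log2 fold change of 0.90 (95% interval 0.24 to 1.56, limma adjusted p = 0.172). Ldhb, whose subunit favours the reverse reaction, averaged 189 ± 81.1 in Etv3-/- libraries and 228 ± 37.4 in Etv3+/+ libraries and took 0.164% to 0.692% of lactate dehydrogenase per kilobase in Etv3-/- libraries and 0.844% and 1.14% in Etv3+/+ libraries. The lactate exporter Slc16a3, a HIF target, averaged 5844 ± 2344 in Etv3-/- libraries and 4473 ± 1304 in Etv3+/+ libraries with overlapping groups, and its log2 fold change of 0.34 was 0.04 without Etv3-/- replicate 1. Slc16a1, the other lactate carrier, was sparse and erratic, at 240 ± 174 in Etv3-/- libraries and 91.9 ± 118 in Etv3+/+ libraries, so its log2 fold change of 2.08 has an interval of -1.15 to 5.30.

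Summed over the 23 genes, glycolysis transcripts took 1.37%, 0.717% and 0.909% of all normalized counts in Etv3-/- libraries, against 0.554% and 0.455% in Etv3+/+ libraries. Both Etv3+/+ shares lay below all Etv3-/- shares, and Etv3-/- replicate 1 stood farther from replicate 2 than replicate 2 did from either Etv3+/+ library. The hypoxia set took 0.238%, 0.128% and 0.113% in Etv3-/- libraries, against 0.115% and 0.131% in Etv3+/+ libraries, which overlapped.

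Pyruvate dehydrogenase kinases keep pyruvate out of mitochondria, and the HIF target Pdk1 is the best known of them in hypoxia. Pdk1 had 5737, 3679 and 3348 normalized counts in Etv3-/- libraries, against 1570 and 3556 in Etv3+/+ libraries, so the groups overlapped (log2 fold change 0.81, limma adjusted p = 0.329). Pdk3 averaged 2881 ± 511 in Etv3-/- libraries and 3997 ± 315 in Etv3+/+ libraries and was lower in all 3 (log2 fold change -0.49, limma adjusted p = 0.335). Per kilobase, Pdk1 made up 25.9% to 45.2% of the pair in Etv3-/- libraries, against 12.1% and 21.7% in Etv3+/+ libraries.

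Hif1a, the oxygen-regulated subunit of HIF, is controlled mainly at the protein level, which was not measured. Its transcript was at 11540, 12124 and 8530 normalized counts in Etv3-/- libraries and 6065 and 10704 in Etv3+/+ libraries, with overlap (log2 fold change 0.40, 95% interval -0.28 to 1.07, limma adjusted p = 0.507). With a correction for GC content and transcript length the log2 fold change was 0.85 and passed the threshold (limma adjusted p = 0.0477), where 1.44% of all genes were called higher. Without Etv3+/+ replicate 1 it was -0.013. Egln3, a prolyl hydroxylase gene that HIF itself induces, had 3695, 1360 and 1616 normalized counts in Etv3-/- libraries, against 748 and 721 in Etv3+/+ libraries, with no overlap (log2 fold change 1.45, 95% interval 0.45 to 2.45, limma adjusted p = 0.153). Egln1, the main oxygen sensor, averaged 3622 ± 934 in Etv3-/- libraries and 3001 ± 536 in Etv3+/+ libraries with overlap.

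The other HIF targets did not share a direction. P4ha1, a collagen prolyl hydroxylase subunit, had 9446, 2720 and 3426 normalized counts in Etv3-/- libraries, against 1425 and 2014 in Etv3+/+ libraries, with no overlap and replicate 1 far above the rest (log2 fold change 1.39, 95% interval 0.23 to 2.55, limma adjusted p = 0.212, and 0.85 without that library). Its partner isoform P4ha2 averaged 1897 ± 1497 in Etv3-/- libraries and 607 ± 100 in Etv3+/+ libraries, likewise without overlap (1.38, and 0.77 without replicate 1). Vegfa, the vascular growth factor, had 37784, 17849 and 13299 normalized counts in Etv3-/- libraries, against 24375 and 25155 in Etv3+/+ libraries. Its Etv3-/- libraries thus lay on both sides of the Etv3+/+ values (log2 fold change -0.25, limma adjusted p = 0.789), and without replicate 1 the value was -0.68.

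The mitophagy receptor gene Bnip3 averaged 3666 ± 3088 in Etv3-/- libraries and 2687 ± 309 in Etv3+/+ libraries. Its relative Bnip3l averaged 7362 ± 1789 in Etv3-/- libraries and 9739 ± 2224 in Etv3+/+ libraries, and the groups overlapped for both. Ndrg1, a stress-induced gene, averaged 7224 ± 2643 in Etv3-/- libraries and 5995 ± 1730 in Etv3+/+ libraries, and Ankrd37 averaged 503 ± 407 in Etv3-/- libraries and 211 ± 61.7 in Etv3+/+ libraries, with overlap. The log2 fold change of Bnip3 was 0.12, or -0.54 without Etv3-/- replicate 1, and that of Ndrg1 0.24, or -0.04. Mif, a cytokine gene that hypoxia induces, had 17615, 7261 and 8767 normalized counts in Etv3-/- libraries, against 3724 and 4243 in Etv3+/+ libraries (log2 fold change 1.39, 95% interval 0.54 to 2.23, limma adjusted p = 0.121). Its groups did not overlap, and the log2 fold change was 1.01 without replicate 1.

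Per kilobase of exon Aldoa led in both genotypes, with 45056 normalized counts per kilobase in Etv3-/- and 21741 in Etv3+/+ libraries, followed by Ldha with 27843 in Etv3-/- and 14560 in Etv3+/+ libraries and Gapdh with 17890 in Etv3-/- and 8595 in Etv3+/+ libraries. Mif was the fourth in Etv3-/- libraries, at 15053, and the sixth in Etv3+/+ libraries, at 5347. Pkm was the fifth in Etv3-/- libraries, at 12666, and the fourth in Etv3+/+ libraries, at 6803. Slc16a1 and Pfkm were the lowest in both. These levels use the union of all annotated exons, which includes exons of minor transcripts.

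Neighbouring metabolic genes, 108 in 6 further lists of which 90 were tested, held 0 calls in either direction (limma), and at an unadjusted p under 0.05 had 11 higher and 6 lower of the 90, where 8.02% of all genes were higher and 9.93% lower. Their median log2 fold change was 0.07. Among other isoforms of glycolytic enzymes and transporters (21 tested, median 0.21), the highest-ranked by p were Slc2a6, a lysosomal hexose transporter, at 10693 ± 2768 in Etv3-/- libraries and 5079 ± 2187 in Etv3+/+ libraries, and the ADP-dependent glucokinase gene Adpgk, at 1546 ± 121 in Etv3-/- libraries and 862 ± 186 in Etv3+/+ libraries. In the pentose phosphate pathway (7 tested, median 0.28) these were the transketolase Tkt, at 22010 ± 3367 in Etv3-/- libraries and 12194 ± 2674 in Etv3+/+ libraries, and G6pdx, the entry enzyme, at 11422 ± 784 in Etv3-/- libraries and 7508 ± 634 in Etv3+/+ libraries. None of these 4 genes was at its highest in Etv3-/- replicate 1, which was the highest library for 19.0% of all genes. Others of these 2 lists, among them Pgm1, Gpd2, Bsg and Rpia, were highest there.

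Genes for pyruvate entry into mitochondria had a median of -0.30 over 12 tested, beside -0.06 over all genes. At an unadjusted p under 0.05 in limma, 2 were lower and 0 higher, where 9.93% and 8.02% of all genes were. The list also held Pdk2 (-0.34), a kinase gene that acts against this entry. The phosphatase gene Pdp2, which reverses the kinases, was at 367 ± 71.8 in Etv3-/- libraries and 874 ± 128 in Etv3+/+ libraries (log2 fold change -1.26, limma adjusted p = 0.145). Dld, a shared dehydrogenase subunit, was at 4456 ± 1636 in Etv3-/- libraries and 7676 ± 2393 in Etv3+/+ libraries, with overlapping groups. For gluconeogenesis (4 tested, median -0.53) Fbp1, the bisphosphatase that opposes phosphofructokinase, was at 498 ± 220 in Etv3-/- libraries and 1340 ± 664 in Etv3+/+ libraries, and the pyruvate carboxylase gene Pcx at 403 ± 163 in Etv3-/- libraries and 672 ± 117 in Etv3+/+ libraries.

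Of 17 other oxygen sensing genes (median -0.27), Vhl, the ubiquitin ligase subunit that removes hydroxylated HIF, was at 18769 ± 1029 normalized counts in Etv3-/- and 29067 ± 1501 in Etv3+/+ libraries, with no overlap (log2 fold change -0.63, limma adjusted p = 0.156). Siah2, a ligase that targets prolyl hydroxylases, was at 2729 ± 279 in Etv3-/- libraries and 1652 ± 109 in Etv3+/+ libraries (0.72). Of 31 further hypoxia response genes (median 0.37), 5 were higher and 1 lower at an unadjusted p under 0.05, where 8.02% of all genes were higher and 9.93% lower. The stress-induced Ier3 was at 1874 ± 617 in Etv3-/- libraries and 621 ± 29.4 in Etv3+/+ libraries (log2 fold change 1.54, limma adjusted p = 0.0733), while Cxcr4, a chemokine receptor gene also induced by HIF, was at 179 ± 28.6 in Etv3-/- libraries and 687 ± 146 in Etv3+/+ libraries (-1.93, limma adjusted p = 0.0806). Like the members, this list held genes on both sides.

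**Figure D5:**
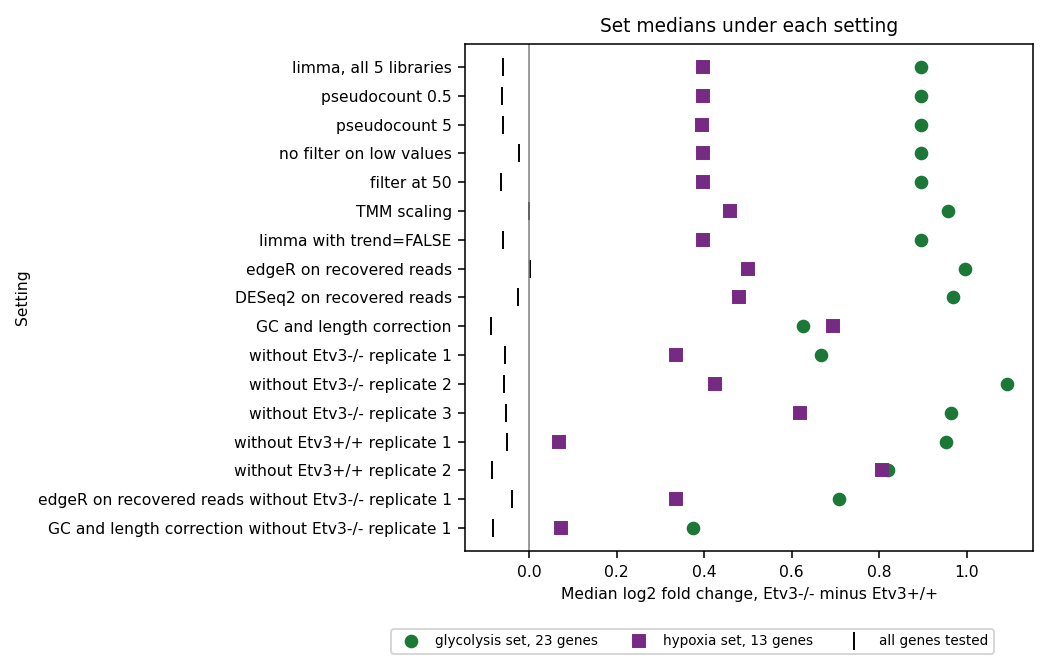
Median log2 fold change, Etv3-/- minus Etv3+/+, of the 23 glycolysis genes (circles), the 13 hypoxia genes (squares) and all genes tested (bars) under the settings plotted, which include each library left out. In the plotted settings the glycolysis median lies between 0.37 and 1.09, and the hypoxia median between 0.07 and 0.81.

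Both medians moved with a correction for GC content and length and with single libraries. Glycolysis transcripts had a median GC content of 53.0%, against 49.7% over all tested genes, and the deviations of a library correlated across genes with GC content at 0.41 (Spearman) in Etv3-/- replicate 3 and -0.42 in Etv3+/+ replicate 2. With a correction for GC content and length the glycolysis median was 0.63 and the hypoxia median 0.69. Without Etv3-/- replicate 1 as well, a setting chosen after seeing the data, they were 0.37 and 0.07. With single libraries left out the hypoxia median was 0.07 without Etv3+/+ replicate 1, 0.81 without Etv3+/+ replicate 2 and 0.62 without Etv3-/- replicate 3. In the annotation 18 of the 36 members overlap a neighbouring gene in position, 15 with one on the other strand, and the strand setting of the counting is not known. Values of Aldoa, Gapdh, Pgk1, Pgam1, Eno1, Ldha and Mif are uncertain where reads also map to processed copies. Among the copies compared, which were not all those annotated, Eno1b and Pgam1-ps2 had the highest counts relative to their member. They reached at most 2.68% of Eno1 and 1.28% of Pgam1 in any library. How reads that map to several places were counted is not known, so these shares do not bound that uncertainty.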

How the data were processed

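Sorted dendritic cells were profiled in 3 Etv3-/- and 2 Etv3+/+ libraries by RNA-seq (SMART-Seq, low input), as the labels' protocols state. The authors deposited normalized gene counts, a signal: read counts scaled by 1 factor per library. The submitters' processing notes name DESeq2 1.26.0, featureCounts, Subread 1.6.3, STAR 2.7.3a and Trimmomatic 0.36, and build mm10. The sources used here do not give annotation, strand setting or filters. Values were whole multiples of 0.856 to 1.24 normalized counts per read, and 100% came within 0.1 of a whole number of reads.

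The test covered 13813 genes that reached 10 normalized counts in 2 or more libraries. It was limma 3.58.1 with a mean-variance trend (R 4.3.3), two-sided, on log2(normalized count + 1). The model held genotype alone, with Benjamini-Hochberg adjustment over all genes. For low genes, fold changes on this scale departed from those of edgeR in either direction. The log2 fold change was 2.08 for Slc16a1, against 1.41 in edgeR, and 1.84 for Pfkm, against 1.99. Alternatives used edgeR 4.0.16 and DESeq2 1.42.0 on recovered reads, other pseudocounts, filters and scaling, a local regression (span 0.3) on GC content and length, a replicate block, and each library left out. Positions, exon lengths and GC content came from GENCODE M21 (GRCm38, the assembly of mm10), and 98.5% of tested genes had a GC value. PCR copies cannot be told from molecules. Members and lists were chosen with earlier results of these data known. Per-library values are given, in each role group, for the member with the highest mean and the one with the lowest p, and from further lists the 2 genes with the lowest p are named. The procedure was tested on simulated counts with the same dispersion for all genes. These held no GC trend and no deviating library, so the test does not cover those features of the data. Figures used matplotlib 3.10.9.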

Additional observations from a re-analysis of the deposited data

How the results depend on the processing

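Of the 36 members, 0 were called in limma. The number called higher was 1 with a pseudocount of 5, a filter at 50 or TMM scaling (Aldoc each time) and with the GC and length correction (Hif1a), and 16 with DESeq2. It was 0 with a pseudocount of 0.5, no filter, trend=FALSE, edgeR and each library left out, and 0 were called lower under each of the 18 alternatives. The replicate block called 3 members higher (Hk2, Pfkl, Aldoc), where it called 151 of the 13813 genes tested higher. With the GC and length correction the block called 2 (Pfkl, Aldoc), and the number of all genes called higher in that fit is not given here. The labels do not state whether equal numbers mark pairs, and the main fit did not take them as pairs. Deviations from the group means correlated at -0.034 and 0.039 between libraries of the same number. With 2 Etv3+/+ libraries, their deviations mirror each other, so these are not separate checks and cannot decide on pairing. Etv3-/- replicate 3 does not enter the blocked difference. The hypoxia median, 0.40 without the block, was 0.62 with it and 0.85 with the block and the GC and length correction.

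Over all genes 121 were higher and 44 lower. These were 44 higher with trend=FALSE, 70 lower with a pseudocount of 5, 644 and 544 with DESeq2, 118 lower with the block, 199 and 137 with the GC and length correction and 93 lower with that and the block. Single omissions gave 0 to 73 higher and 0 to 7 lower. Omitting Etv3-/- replicate 1 under another method, added after seeing the data, gave 0 and 0 with edgeR (1780 genes at an unadjusted p under 0.05) and 67 higher with the GC and length correction, where the glycolysis median was 0.37. An omission that leaves 1 Etv3+/+ library assumes that it varies like the others.

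The log2 fold change kept its sign in all 18 alternatives for 25 members, 18 of them glycolysis genes. Omitting 1 library at a time gave -0.39 to 1.12 for Slc2a3, -0.40 to 0.69 for Pfkfb4, -0.59 to 0.062 for Ldhb, -0.038 to 4.19 for Slc16a1, -0.013 to 0.81 for Hif1a, -0.68 to 0.069 for Vegfa, -0.54 to 0.62 for Bnip3 and -0.058 to 0.54 for Ndrg1. Without Etv3-/- replicate 1 edgeR gave -0.15 for Pfkfb4, 0.088 for Ldhb, -0.46 for Bnip3 and -0.035 for Ndrg1. The GC and length correction gave -0.076 for Pfkfb4, and without replicate 1 as well -0.38 for Pfkfb4, -0.18 for Slc16a3, -0.19 for Egln1, -0.20 for Bnip3 and -0.19 for Ndrg1. The block gave 0.069 for Vegfa, and with the correction 0.045 for Bnip3l. The cause of these moves was not tested.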
